A study of Mus musculus with 6 samples.

Results

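The matrix metalloproteinases (MMPs), their ADAMTS and ADAMTS-like relatives and the tissue inhibitors of metalloproteinases (TIMPs) were examined in single bone marrow CFU-F colonies (colony-forming unit-fibroblastic, the colony that an adherent marrow stromal cell founds in culture). Members were the genes of the deposited table whose symbol is Mmp, Adamts, Adamtsl or Timp followed by a number. This rule took 36 of 14735 genes: 15 MMP, 14 ADAMTS, 4 ADAMTSL and 3 TIMP genes. The colonies came from hind limb marrow of C57BL/6 mice aged 2 months that carried Col10a1-Cre and R26-tdTomato. They were grown at clonal density and lysed whole at day 10. The comparison asked how 3 tdTOMATO+ CFU-Fs (labelled Tomato 1 to 3) differ from 3 tdTOMATO- CFU-Fs (labelled NonTomato 1 to 3), so both groups carry the same alleles and differ by whether the colony fluoresced. Cre is driven by the promoter of collagen X, the collagen of hypertrophic chondrocytes, and the reporter stays on in every descendant of a cell that once made Cre. tdTOMATO therefore records ancestry and not present Col10a1 transcription. Col10a1 itself had 634, 521 and 529 normalized counts in tdTOMATO+ colonies, against 597, 1178 and 799 in tdTOMATO- colonies, with overlapping groups. All 8 marrow stroma markers listed were measured. Cxcl12, the chemokine of that stroma, had 43947 to 87775 normalized counts in tdTOMATO+ and 40673 to 70841 in tdTOMATO- colonies. Lepr, the leptin receptor that marks marrow stromal cells, had 408, 354 and 1132 in tdTOMATO+ colonies, against 97.3, 69.4 and 108 in tdTOMATO- colonies, higher in every tdTOMATO+ colony (adjusted p = 0.0647 by limma and 4.93e-09 by DESeq2), and Ebf3 also did not overlap. Limma and edgeR called 0 of the 8, DESeq2 called 1, and 1 had an unadjusted p under 0.05. Whether separate mice gave the colonies is not stated, and the p-values measure only the spread between these 6 colonies, which may be technical.

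MMPs are zinc-dependent proteases that are made as inactive precursors and, once their propeptide is removed, cut collagens, gelatins and other matrix proteins outside the cell or at its membrane. ADAMTS enzymes are secreted zinc proteases with thrombospondin repeats, known for trimming procollagens and for cutting large proteoglycans. ADAMTSL proteins resemble them but lack the protease domain. TIMPs block the active site of MMPs, and TIMP3, which binds to the matrix, also blocks ADAMTS and ADAM enzymes. In bone and growth plate these genes are known for removing hypertrophic cartilage and for remodelling collagen I.

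Mmp13 and Timp3 were higher in tdTOMATO+ colonies and Adamtsl5 was lower. These 3 of the 36 genes passed the test across all genes (limma on the log2 scale, adjusted p under 0.05), with 2 higher and 1 lower. Of all 14735 genes tested, 1.20% were called higher and 0.143% lower, 1.34% in all, against 8.33% of the members. Mmp13 is a collagenase made by hypertrophic chondrocytes and by osteoblast-lineage cells, and Timp3 was the most abundant of the 36 transcripts. DESeq2 on the recovered reads called 6 members higher and 2 lower, where 3.52% of 14155 genes were called higher and 1.12% lower, 4.64% in all. edgeR's quasi-likelihood test called the same numbers as limma, 2 and 1, with 1.15% of all genes called higher and 0.129% lower, 1.28% in all. At an unadjusted p under 0.05, 8 members were higher and 3 lower, where 7.53% and 4.79% of all genes were, 12.3% in either direction. The log2 fold change was above 0 in 22 members and in 49.0% of all genes. The adjusted p-values that follow are limma's, two-sided, unless another tool is named.

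Because these calls concern transcript levels, the sequence just before the transcription start of each called gene is shown. The windows are from RefSeq on GRCm38, read along the gene's own strand, and end before any annotated exon, so that of Timp3 is cut to 210 bases. Capitals mark matches, on either strand, to the AP-1 motif TGANTCA, the RUNX motif ACCACA, the promoter element TATAAA or the GC box GGGCGG. No 2 of the marked matches overlap. The Mmp13 window is chr9:7272264-7272513 (plus strand), the Timp3 window is chr10:86300162-86300371 (plus strand) and the Adamtsl5 window is chr10:80348449-80348698 (minus strand).

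Mmp13: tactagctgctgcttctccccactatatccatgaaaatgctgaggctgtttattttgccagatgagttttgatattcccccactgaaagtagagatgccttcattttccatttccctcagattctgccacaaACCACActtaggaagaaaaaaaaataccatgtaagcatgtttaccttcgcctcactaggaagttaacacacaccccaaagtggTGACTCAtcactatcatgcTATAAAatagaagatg
Timp3: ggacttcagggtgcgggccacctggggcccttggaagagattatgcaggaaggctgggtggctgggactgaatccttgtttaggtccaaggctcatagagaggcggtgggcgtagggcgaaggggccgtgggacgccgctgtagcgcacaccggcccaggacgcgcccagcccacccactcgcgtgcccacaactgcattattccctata
Adamtsl5: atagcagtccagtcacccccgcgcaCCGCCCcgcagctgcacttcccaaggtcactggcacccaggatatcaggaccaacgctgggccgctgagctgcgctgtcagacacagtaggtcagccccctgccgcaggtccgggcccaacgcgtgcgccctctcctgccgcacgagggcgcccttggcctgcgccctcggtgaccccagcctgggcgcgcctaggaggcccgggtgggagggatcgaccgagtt

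The Mmp13 window held the RUNX letters beginning 118 bases before the start site, the AP-1 letters 35 bases before it and the TATAAA element 16 bases before it. The Adamtsl5 window held a GC box 225 bases before its start, and none of the 4 sets of letters was in the Timp3 window. Of 32851 mouse windows of 250 bases, 6.75% held the AP-1 letters, 14.0% the RUNX letters, 12.4% the TATAAA element and 32.7% the GC box. A window was given for 24 of the 36 members (26 windows). The AP-1 letters were in 2 of these, the RUNX letters in 4, the TATAAA element in 2 and the GC box in 17. These matches describe the letters only.

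Mmp13 (plus strand, chr9:7272514-7283331) had 18036, 12347 and 20536 normalized counts in tdTOMATO+ colonies 1, 2 and 3, against 3844, 6181 and 5988 in tdTOMATO- colonies 1, 2 and 3. The lowest tdTOMATO+ colony lay above the highest tdTOMATO- colony. The mean was 16973 ± 4197 in tdTOMATO+ and 5338 ± 1297 in tdTOMATO- colonies (SD, n = 3 each), a ratio of 3.18. The log2 fold change was 1.67 ± 0.26 (SE), with a 95% interval of 1.05 to 2.29 and an adjusted p of 0.0452 (0.0448 by edgeR and 5.88e-11 by DESeq2). With any 1 of the 6 colonies left out the log2 fold change stayed between 1.45 and 1.88, while the adjusted p was 0.0543 without tdTOMATO- 1, 0.104 without tdTOMATO- 2, 0.0958 without tdTOMATO- 3, 0.142 without tdTOMATO+ 1, 0.0791 without tdTOMATO+ 2 and 0.123 without tdTOMATO+ 3.

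Ibsp, the gene of bone sialoprotein and a marker shared by hypertrophic chondrocytes and osteoblasts, had 36598, 15095 and 28719.7 normalized counts in tdTOMATO+ colonies, against 6371, 7005 and 3985 in tdTOMATO- colonies (log2 fold change 2.16 ± 0.39 (SE), adjusted p = 0.0757). tdTOMATO+ 2 was the lowest and tdTOMATO- 2 the highest of its group for both Mmp13 and Ibsp. The highest tdTOMATO+ colony differed (3 for Mmp13 and 1 for Ibsp), as did the lowest tdTOMATO- colony (1 for Mmp13 and 3 for Ibsp). Of the 7 hypertrophic chondrocyte markers and the 9 osteoblast markers listed, all measured, limma and edgeR called 0, while DESeq2 called 1 hypertrophic and 2 osteoblast genes. At an unadjusted p under 0.05, 1 hypertrophic gene was higher, and 4 osteoblast genes were higher and 1 lower. Of the 7, 5 fold changes were above 0 and 2 below (median 0.18). Of the 9, 5 were above 0 and 4 below (median 0.07). Ibsp had the highest on both lists. Those below 0 were Col10a1 (-0.56), Sp7 (-0.17, on both lists), Bglap (-0.62), Bglap2 (-0.35) and Col1a1 (-0.32), each with overlapping groups. Of the 9 osteoblast markers, 4 were higher in every tdTOMATO+ colony, Ibsp, Phex (0.62), Alpl (0.50) and Runx2 (0.44), and 0 were lower in every one. Of all genes, 9.89% were higher and 8.33% lower without overlap. The part of either cell state in the Mmp13 difference was not tested. As the colonies were lysed whole, fewer cells of a type and less RNA per cell cannot be told apart for any gene here.

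Mmp13 lies among MMP genes on chromosome 9, where Mmp12, Mmp8 and Mmp27 were the other members within 309 kb, all 4 on the plus strand. Mmp12 (chr9:7344381-7369499), the macrophage elastase, had 2675, 3269 and 847 normalized counts in tdTOMATO+ colonies, against 1126, 556 and 1050.4 in tdTOMATO- colonies. tdTOMATO+ 1 and 2 stood above every tdTOMATO- colony and tdTOMATO+ 3 stood among them, and the difference did not pass (adjusted p = 0.514). Mmp8 (chr9:7558456-7568485), the collagenase known from neutrophils, had 19.1 to 91.8 normalized counts in tdTOMATO+ colonies and 16 to 59.8 in tdTOMATO- colonies. Mmp27 (chr9:7571396-7581885) had 20.1 to 30.9 normalized counts in tdTOMATO+ colonies and 6.01 to 20.2 in tdTOMATO- colonies. Both sat far below Mmp13 and overlapped between the groups.

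**Figure D1:**
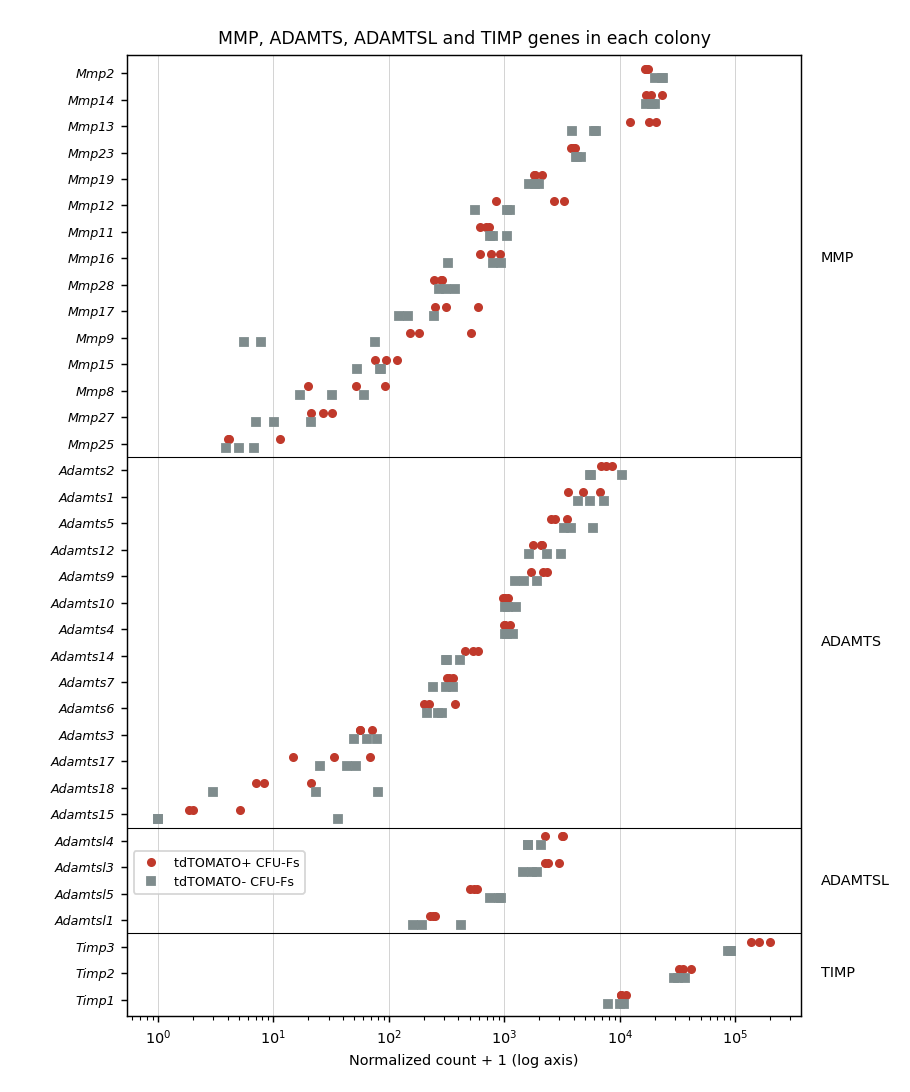
Normalized counts plus 1 (log axis) of the 36 genes, 1 row a gene grouped by class, with 1 point a colony in 3 tdTOMATO+ and 3 tdTOMATO- colonies. Timp3, Timp2, Timp1, Mmp2, Mmp14 and Mmp13 were the 6 genes with the highest means, and the tdTOMATO+ points of Mmp13 and Timp3 all lie right of the tdTOMATO- points.

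The gelatinases Mmp2 and Mmp9, which cut denatured collagen, had fold changes of opposite sign, and neither passed by limma. Mmp2 had 16949.6, 16432 and 17382 normalized counts in tdTOMATO+ colonies 1, 2 and 3, against 23507, 20142 and 23290.0 in tdTOMATO- colonies 1, 2 and 3. All tdTOMATO+ colonies lay below all tdTOMATO- colonies, and the mean was 16921 ± 476 in tdTOMATO+ and 22313 ± 1883 in tdTOMATO- colonies (SD, n = 3 each). The log2 fold change was -0.40 ± 0.08 (SE), with an interval of -0.59 to -0.20. It did not pass by limma (adjusted p = 0.0801) or edgeR (0.088) and passed by DESeq2 (0.000809).

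Mmp9, the gelatinase B of osteoclasts and of invading cells at the growth plate, had 514, 181 and 151 normalized counts in tdTOMATO+ colonies 1, 2 and 3, against 4.58, 6.75 and 75.2 in tdTOMATO- colonies 1, 2 and 3. Each tdTOMATO+ colony was above each tdTOMATO- colony, but tdTOMATO+ 1 was the highest by far and tdTOMATO- 3 was more than 10 times the other tdTOMATO- colonies, where the lowest library had 4 reads. The log2 fold change of 4.03 ± 1.09 (SE) had an interval of 1.34 to 6.71 and did not pass (adjusted p = 0.208 by limma, 0.304 by edgeR and 0.124 by DESeq2). Without tdTOMATO- 3 it was 5.20 (adjusted p = 0.0319).

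Of 8 osteoclast markers measured, 4 were clearly highest in the colony with the most Mmp9. Acp5, the acid phosphatase of osteoclasts, had 210.3, 83.2 and 95.5 normalized counts in tdTOMATO+ colonies, against 41.2, 35.7 and 26.1 in tdTOMATO- colonies. Atp6v0d2, a proton pump subunit needed for osteoclast fusion, had 85.6, 26.6 and 38.2 in tdTOMATO+ colonies, against 8.01, 4.82 and 5.01 in tdTOMATO- colonies. Dcstamp, a fusion receptor, had 21.7, 5.15 and 4.02 in tdTOMATO+ colonies, against 1.14, 0 and 0 in tdTOMATO- colonies, and Ocstamp had 10.3, 5.15 and 0 in tdTOMATO+ colonies, against 0, 0 and 0 in tdTOMATO- colonies. tdTOMATO+ 1 was the highest colony for these 4. Ctsk, Nfatc1 and Itgb3 did not follow that order. Ctsk, the collagen-cutting protease of osteoclasts, had 2276, 2154 and 2743 in tdTOMATO+ colonies, against 2852, 2404 and 2196 in tdTOMATO- colonies, Nfatc1, a transcription factor of the lineage, had 1699, 2004 and 1923 in tdTOMATO+ colonies, against 1519, 2091 and 2509 in tdTOMATO- colonies, and Itgb3, an integrin subunit, had 728, 1109.7 and 859 in tdTOMATO+ colonies, against 911, 1009 and 2294 in tdTOMATO- colonies. Each of these 3 overlapped and was highest in a tdTOMATO- colony. Tnfrsf11a, the RANK receptor, had 597.0, 596.9 and 515 in tdTOMATO+ colonies, against 326, 306 and 289 in tdTOMATO- colonies. Its values in tdTOMATO+ 1 and 2 were nearly equal. Of the 10 osteoclast markers listed limma called 2 higher (Atp6v0d2 and Tnfrsf11a). The sum over the 8 measured was 5628 to 6179 in tdTOMATO+ colonies and 5660 to 7319 in tdTOMATO- colonies. Most of that sum came from Ctsk, Nfatc1 and Itgb3, so it says little about the less abundant markers. All 18 macrophage and monocyte markers were measured and 12 were called higher, where 1.20% of all genes were. Their sums were 72216 to 78148 in tdTOMATO+ colonies and 41848 to 42520 in tdTOMATO- colonies. Of 8 pan-leukocyte markers 7 were called higher, with sums of 16059 to 19094 in tdTOMATO+ colonies and 10266 to 10621 in tdTOMATO- colonies. Neutrophil markers were near absent, with 2 of 10 measured and sums of 72.2 to 91.8 in tdTOMATO+ colonies and 63.6 to 89.2 in tdTOMATO- colonies. The part of these cells in the values of Mmp9, Mmp12, Timp3 or any other member was not tested.

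Of the MMPs anchored to the cell surface, Mmp14 was the most abundant. Mmp14 (MT1-MMP), a collagenase that also activates pro-MMP2 together with TIMP2, had 16922, 18601 and 23086 normalized counts in tdTOMATO+ colonies 1, 2 and 3, against 18952, 16693 and 20132 in tdTOMATO- colonies 1, 2 and 3. The groups overlapped and the interval of the log2 fold change was -0.24 to 0.36 (adjusted p = 0.910). Mmp17 (MT4-MMP), held by a lipid anchor, had 249.5, 591 and 311 normalized counts in tdTOMATO+ colonies, against 245, 122 and 144 in tdTOMATO- colonies. tdTOMATO+ 1 lay just above tdTOMATO- 1, tdTOMATO+ 2 was the highest colony, and the log2 fold change of 1.13 ± 0.39 (SE) passed by DESeq2 (0.0329) but not by limma (adjusted p = 0.308).

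The other members of the surface-bound group, Mmp16 and Mmp15 with a transmembrane domain and Mmp25 with a lipid anchor, were less abundant. Mmp16 had 617 to 922 normalized counts in tdTOMATO+ colonies and 327 to 931 in tdTOMATO- colonies. Mmp15 had 75.5 to 118 normalized counts in tdTOMATO+ colonies and 51.5 to 84.8 in tdTOMATO- colonies. Mmp25 had 3.01 to 10.3 normalized counts in tdTOMATO+ colonies and 2.89 to 5.72 in tdTOMATO- colonies. The fitted fold changes of all 5 were above 0 with a median of 0.29, though that of Mmp14 was -0.01 without tdTOMATO- 2 and -0.06 without tdTOMATO+ 3. Limma called 0 of the 5, 1 (Mmp17) had an unadjusted p under 0.05, edgeR called 0 and DESeq2 1. Mmp23, which is cut from the membrane as it is activated, had 3888, 4087 and 3800.2 normalized counts in tdTOMATO+ colonies, against 4622, 4182 and 4281 in tdTOMATO- colonies. Its groups did not overlap, yet the log2 fold change of -0.15 ± 0.07 (SE) was small and did not pass (adjusted p = 0.428).

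Among the remaining MMPs, Mmp11 (stromelysin-3), known from stroma during tissue remodelling, had 609, 696 and 734 normalized counts in tdTOMATO+ colonies, against 752, 802 and 1043 in tdTOMATO- colonies. All tdTOMATO+ values were lower, and the log2 fold change of -0.34 ± 0.14 (SE) did not pass (adjusted p = 0.374). Without tdTOMATO- 3 it was -0.20. Mmp19 had 1789 to 2110.1 normalized counts in tdTOMATO+ colonies and 1638 to 1979 in tdTOMATO- colonies, and Mmp28 (epilysin) had 243 to 288 normalized counts in tdTOMATO+ colonies and 269 to 372 in tdTOMATO- colonies. Over the 15 MMP genes limma called 1 (Mmp13), 11 fold changes were above 0 and 4 below, and the median was 0.29, while over all genes the median was -0.00. Groups did not overlap for 3 MMP genes that were higher and 3 that were lower. Of all genes 9.89% were higher and 8.33% lower without overlap, 18.2% in all (19.1% of genes that averaged 30 or more), and 11 of the 36 members did so (30.6%).

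**Figure D2:**
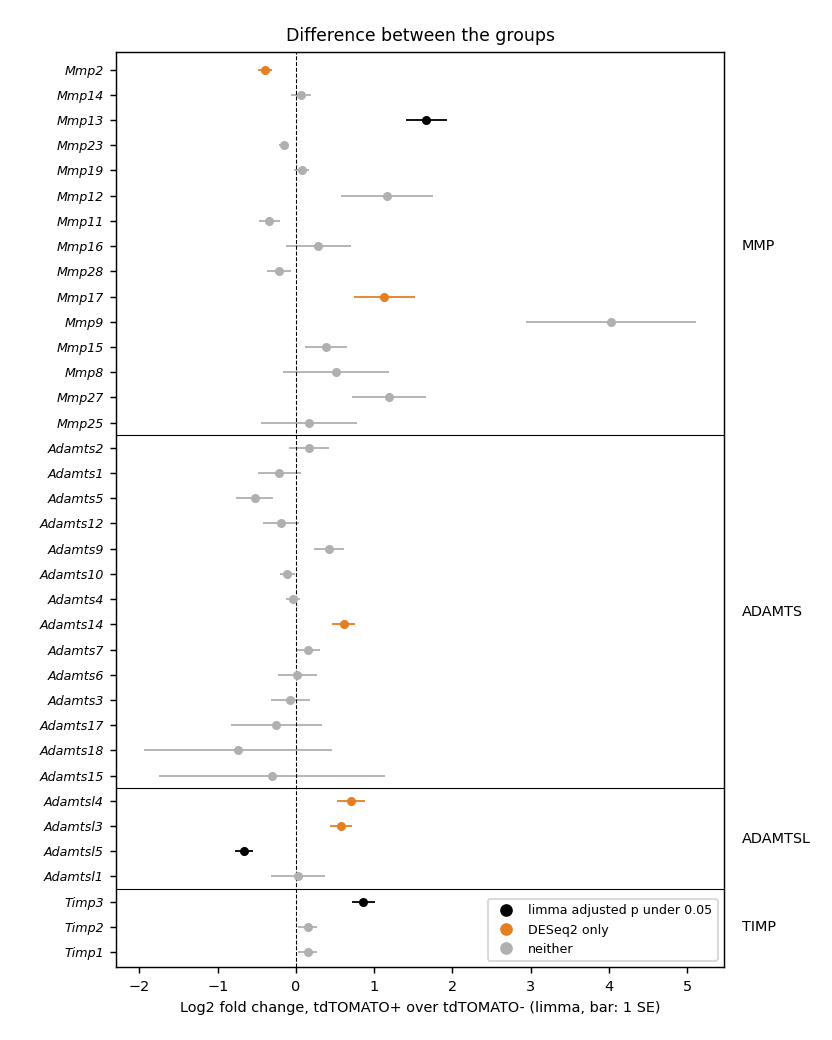
Log2 fold change (tdTOMATO+ over tdTOMATO-) of each of the 36 genes with a bar of 1 SE from limma, grouped by class, with the genes called by limma and those called only by DESeq2 marked. Mmp13 (1.67) and Timp3 (0.86) lie right of 0 and Adamtsl5 (-0.67) left of it, and Mmp9 (4.03) is farthest right with a wide bar (SE 1.09).

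The makeup of the MMP pool differed more than its size. The summed MMP signal was 63059.6, 59209 and 70022 in tdTOMATO+ colonies, against 56028, 51891 and 58655 in tdTOMATO- colonies. The ratio of means was 1.15, and the sums did not overlap between the groups. Mmp13 made up 28.6%, 20.9% and 29.3% of that sum in tdTOMATO+ colonies, against 6.86%, 11.9% and 10.2% in tdTOMATO- colonies. Mmp2 made up 26.9%, 27.8% and 24.8% in tdTOMATO+ colonies, against 42.0%, 38.8% and 39.7% in tdTOMATO- colonies. Neither share overlapped between the groups. Both are parts of the same sum, so a larger Mmp13 count also lowers the Mmp2 share. Mmp2, Mmp13 and Mmp14 together gave 83.2% of the sum in tdTOMATO+ colonies and 83.3% in tdTOMATO- colonies, with Mmp13 taking the larger and Mmp2 the smaller part in tdTOMATO+ colonies. These shares compare counts, in which long transcripts weigh more.

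**Figure D3:**
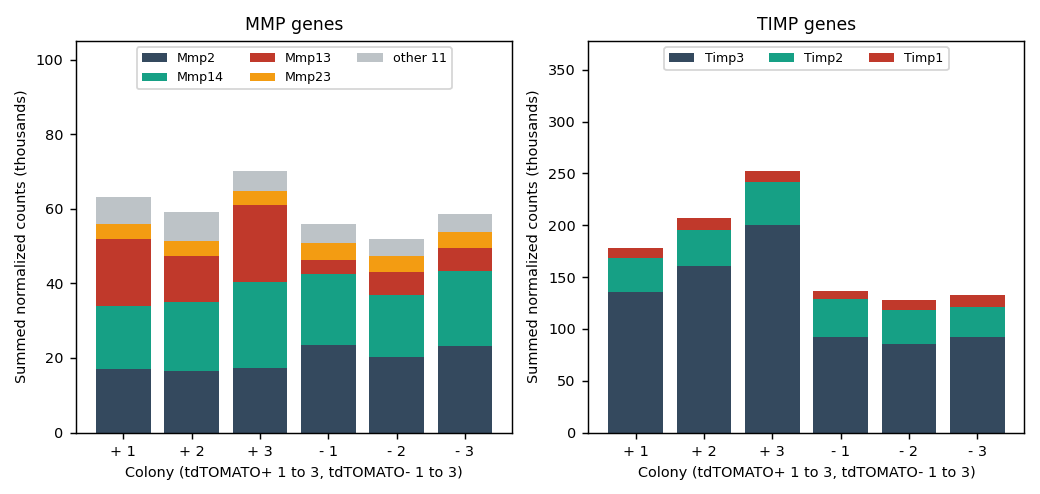
Stacked normalized counts of the MMP genes and of the TIMP genes in each of the 3 tdTOMATO+ and 3 tdTOMATO- colonies, with the most abundant genes coloured. The Mmp13 block is larger and the Mmp2 block smaller in every tdTOMATO+ colony, and the larger TIMP sum of tdTOMATO+ colonies comes with a larger Timp3 block.

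No ADAMTS gene passed by limma or edgeR, and 1 had an unadjusted p under 0.05. Of the procollagen N-proteinases, which trim the N-terminal propeptide of fibrillar collagens, Adamts2 was the most abundant and had 6854, 7616 and 8606 normalized counts in tdTOMATO+ colonies, against 5577, 5469.9 and 10407 in tdTOMATO- colonies. The groups overlapped through tdTOMATO- 3, the highest colony (adjusted p = 0.876). Adamts14 had 459, 593 and 529.5 normalized counts in tdTOMATO+ colonies, against 409.9, 314 and 312 in tdTOMATO- colonies. All tdTOMATO+ colonies were higher, with a log2 fold change of 0.61 ± 0.15 (SE) (adjusted p = 0.116, and 0.0145 by DESeq2, whose only ADAMTS call it was). Without tdTOMATO- 1 it was 0.74 (adjusted p = 0.0457). Adamts3 had 54.9 to 70.1 normalized counts in tdTOMATO+ colonies and 49.2 to 78.1 in tdTOMATO- colonies.

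The ADAMTS enzymes that cleave aggrecan and versican gave no call. Adamts5, the main aggrecanase of mouse cartilage, and Adamts1 are neighbours 53.1 kb apart on the minus strand of chromosome 16. Adamts5 had 2753, 3488 and 2532 normalized counts in tdTOMATO+ colonies, against 3254, 5886 and 3804 in tdTOMATO- colonies. tdTOMATO- 2 was the highest colony, the groups overlapped, and the log2 fold change of -0.53 ± 0.24 (SE) did not pass (adjusted p = 0.451). Without tdTOMATO- 2 it was -0.28. Adamts1 had 6726, 4759 and 3551 normalized counts in tdTOMATO+ colonies, against 5523, 7298 and 4376 in tdTOMATO- colonies, again with overlap and with tdTOMATO- 2 the highest (adjusted p = 0.854). Adamts4 had 991 to 1127 normalized counts in tdTOMATO+ colonies and 1005 to 1181 in tdTOMATO- colonies, and Adamts9 had 1682 to 2327 normalized counts in tdTOMATO+ colonies and 1231 to 1911 in tdTOMATO- colonies. Adamts15 had 4.12, 0.858 and 1.00 in tdTOMATO+ colonies, against 0, 0 and 35.1 in tdTOMATO- colonies, so nearly all of it was in tdTOMATO- 3. Acan, the gene of aggrecan, had 2.06, 0 and 0 in tdTOMATO+ colonies, against 4.58, 0.964 and 161 in tdTOMATO- colonies, and was highest in the same colony. In all, 1 of these 5 genes had a fold change above 0 and 4 below, with a median of -0.21, and the sign of Adamts1 turned (0.01) without tdTOMATO+ 3.

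Other ADAMTS genes were measured without a call. Adamts7 and Adamts12, which cleave cartilage oligomeric matrix protein, overlapped between the groups. Adamts7 had 319 to 357 normalized counts in tdTOMATO+ colonies and 242 to 359.8 in tdTOMATO- colonies, and Adamts12 had 1751 to 2131 normalized counts in tdTOMATO+ colonies and 1628 to 3065 in tdTOMATO- colonies. Adamts10 and Adamts6, relatives known for their part in fibrillin microfibrils, overlapped as well. Adamts10 had 969.6 to 1083 normalized counts in tdTOMATO+ colonies and 1003 to 1251 in tdTOMATO- colonies, and Adamts6 had 200.0 to 372 normalized counts in tdTOMATO+ colonies and 211 to 285 in tdTOMATO- colonies. Adamts17 had 13.7 to 68 normalized counts in tdTOMATO+ colonies and 24.1 to 51.1 in tdTOMATO- colonies, and Adamts18 had 6.00 to 20.1 normalized counts in tdTOMATO+ colonies and 2.00 to 80.1 in tdTOMATO- colonies. Over the 14 ADAMTS genes 5 fold changes were above 0 and 9 below, the median was -0.09, and the summed signal was 23469, 23723 and 21733 in tdTOMATO+ colonies, against 20461, 25542 and 26946 in tdTOMATO- colonies, with overlap.

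Groups did not overlap for 3 of the 4 ADAMTSL genes, in both directions, where 18.2% of all genes did not overlap. With 4 genes this share says little about the class. Adamtsl5 (minus strand, chr10:80339110-80348412), a protein that binds fibrillin and heparin, had 549, 575 and 502 normalized counts in tdTOMATO+ colonies 1, 2 and 3, against 748, 899 and 942 in tdTOMATO- colonies 1, 2 and 3. Every tdTOMATO+ colony was lower, and the log2 fold change was -0.67 ± 0.11 (SE) with an interval of -0.92 to -0.41 (adjusted p = 0.0378 by limma, 0.038 by edgeR and 8.22e-05 by DESeq2). The call held without tdTOMATO- 1 (adjusted p = 0.0192) and not without tdTOMATO- 2 (0.144), tdTOMATO- 3 (0.0928), tdTOMATO+ 1 (0.118), tdTOMATO+ 2 (0.13) or tdTOMATO+ 3 (0.109).

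Adamtsl4, which binds fibrillin-1 and is known in humans from displaced lenses, had 2227, 3179.9 and 3244 normalized counts in tdTOMATO+ colonies, against 1616, 2069 and 1587 in tdTOMATO- colonies. Adamtsl3 (punctin-2) had 2256, 2392 and 2964 normalized counts in tdTOMATO+ colonies, against 1447, 1913 and 1741 in tdTOMATO- colonies. Both lay higher in every tdTOMATO+ colony, with log2 fold changes of 0.70 ± 0.17 (SE) and 0.58 ± 0.14 (SE). Neither passed by limma (adjusted p = 0.149 and 0.116) and both passed by DESeq2 (0.00284 and 0.0061). Adamtsl1 (punctin) had 228 to 249.6 normalized counts in tdTOMATO+ colonies and 159 to 421 in tdTOMATO- colonies. The class median was 0.30.

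Of the inhibitors, only Timp3 passed. Timp3 (plus strand, chr10:86300372-86349506) had 135661, 160617 and 200430 normalized counts in tdTOMATO+ colonies 1, 2 and 3, against 92384, 85704 and 92200.0 in tdTOMATO- colonies 1, 2 and 3. All tdTOMATO+ colonies were higher, tdTOMATO+ 3 the highest, and the 3 tdTOMATO- colonies lay close together. The log2 fold change was 0.86 ± 0.14 (SE), with an interval of 0.52 to 1.20 and an adjusted p of 0.0391 (0.0412 by edgeR and 3.36e-07 by DESeq2). With 1 colony left out it stayed between 0.71 and 0.99, while the adjusted p was 0.0551 without tdTOMATO+ 1, 0.159 without tdTOMATO+ 2, 0.0638 without tdTOMATO+ 3, 0.0574 without tdTOMATO- 1, 0.152 without tdTOMATO- 2 and 0.0949 without tdTOMATO- 3. Syn3, a synapsin gene on the opposite strand, shares 1733 bases of exon with Timp3 (21.3%) and had 265, 235 and 322 normalized counts in tdTOMATO+ colonies, against 144, 100.3 and 77.2 in tdTOMATO- colonies (log2 fold change 1.38, adjusted p = 0.0462). Its part in the Timp3 difference was not tested. Strand use in counting is not given in the sources used here.

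Timp2, which both inhibits MMP14 and helps it to activate pro-MMP2, had 32492, 34961 and 41416 normalized counts in tdTOMATO+ colonies, against 36427, 32186 and 29272 in tdTOMATO- colonies. Its groups overlapped, with an interval of -0.13 to 0.43 for the log2 fold change (adjusted p = 0.709). Timp1, the inhibitor known for pairing with pro-MMP9, had 10279, 11227 and 10129.6 normalized counts in tdTOMATO+ colonies, against 7882, 9973 and 10829.7 in tdTOMATO- colonies. It also overlapped, with an interval of -0.13 to 0.43 (adjusted p = 0.707). The test for Timp1 and Timp2 leaves room for a log2 change of up to 0.43 in either gene. Timp3 gave 76.0%, 77.7% and 79.5% of the TIMP sum in tdTOMATO+ colonies, against 67.6%, 67.0% and 69.7% in tdTOMATO- colonies.

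Levels of different genes were compared per kilobase of exon. By group means, Timp3 was first with 20330 normalized counts per kb in tdTOMATO+ colonies and 11063 in tdTOMATO- colonies. Timp1 followed with 11875 per kb in tdTOMATO+ and 10768 in tdTOMATO- colonies. By colony, Timp3 was above Timp1 in every tdTOMATO+ colony, but Timp1 was above Timp3 in tdTOMATO- 2 (11231 against 10524) and tdTOMATO- 3 (12196 against 11321), so their order did not hold there. Timp2 followed with 9315 per kb in tdTOMATO+ and 8375 in tdTOMATO- colonies. By means, the most abundant MMP per kb was Mmp13 in tdTOMATO+ colonies (6350 against 1997 in tdTOMATO- colonies) and Mmp2 in tdTOMATO- colonies (5020 in tdTOMATO+ against 6619 in tdTOMATO- colonies), though in tdTOMATO+ 2 Mmp2 (4875) was above Mmp13 (4619). Mmp14 had 3278 per kb in tdTOMATO+ and 3119 in tdTOMATO- colonies. The most abundant ADAMTS gene per kb was Adamts1, with 945 in tdTOMATO+ and 1081 in tdTOMATO- colonies. Of the 36 genes, 18 had a mean of at least 1000 normalized counts before scaling by length.

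Proteases were set against inhibitors within each colony. Over the whole classes, summed MMP counts were below summed TIMP counts in every colony, with linear ratios of 0.353, 0.286 and 0.278 in tdTOMATO+ colonies, against 0.410, 0.406 and 0.443 in tdTOMATO- colonies. The log2 ratio was -1.50, -1.80 and -1.85 in tdTOMATO+ colonies, against -1.29, -1.30 and -1.17 in tdTOMATO- colonies, a difference of -0.46 with no overlap between the groups. With 3 colonies against 3 an exact permutation test cannot give a two-sided p below 0.1, so it could not pass for any ratio, and no p is given. Without Timp3 the log2 ratio was 0.56, 0.36 and 0.44 in tdTOMATO+ colonies, against 0.34, 0.30 and 0.55 in tdTOMATO- colonies, a difference of 0.06 with overlap.

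Counted per base of exon, the log2 ratio was -1.04, -1.38 and -1.25 in tdTOMATO+ colonies, against -1.01, -1.10 and -0.99 in tdTOMATO- colonies, and the groups overlapped (difference -0.19). When every gene weighed the same, the mean log2 value of MMP genes minus that of TIMP genes was -5.81, -5.87 and -6.37 in tdTOMATO+ colonies, against -6.29, -6.28 and -6.23 in tdTOMATO- colonies. That difference, 0.25, had the opposite sign and its groups overlapped. This measure gives full weight to Mmp9, which had the largest MMP log2 fold change (4.03), did not pass and had 4 reads in its lowest library. How far the opposite sign rests on Mmp9 was not tested. No direction of the protease to inhibitor balance therefore held across these measures. The ADAMTS to TIMP log2 ratio was -2.93, -3.12 and -3.54 in tdTOMATO+ colonies, against -2.74, -2.32 and -2.30 in tdTOMATO- colonies (difference -0.74), and without Timp3 it overlapped (difference -0.22).

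Pairs of an enzyme and an inhibitor gave different directions. The log2 ratio of Mmp13 to Timp3 was -2.91, -3.70 and -3.29 in tdTOMATO+ colonies, against -4.59, -3.79 and -3.94 in tdTOMATO- colonies, higher in tdTOMATO+ colonies by 0.81 although both genes were higher there. Mmp13 over Timp1 was 0.81, 0.14 and 1.02 in tdTOMATO+ colonies, against -1.04, -0.69 and -0.85 in tdTOMATO- colonies (difference 1.52). Mmp2 over Timp2 was -0.94, -1.09 and -1.25 in tdTOMATO+ colonies, against -0.63, -0.68 and -0.33 in tdTOMATO- colonies, lower in tdTOMATO+ colonies with a difference of -0.55. Mmp2 over Timp3 (difference -1.26) and Adamts5 over Timp3 (-1.39) were also lower, and Mmp9 over Timp1 higher (4.03), with no overlap. Mmp14 over Timp2 overlapped, with a difference of -0.09.

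**Figure D4:**
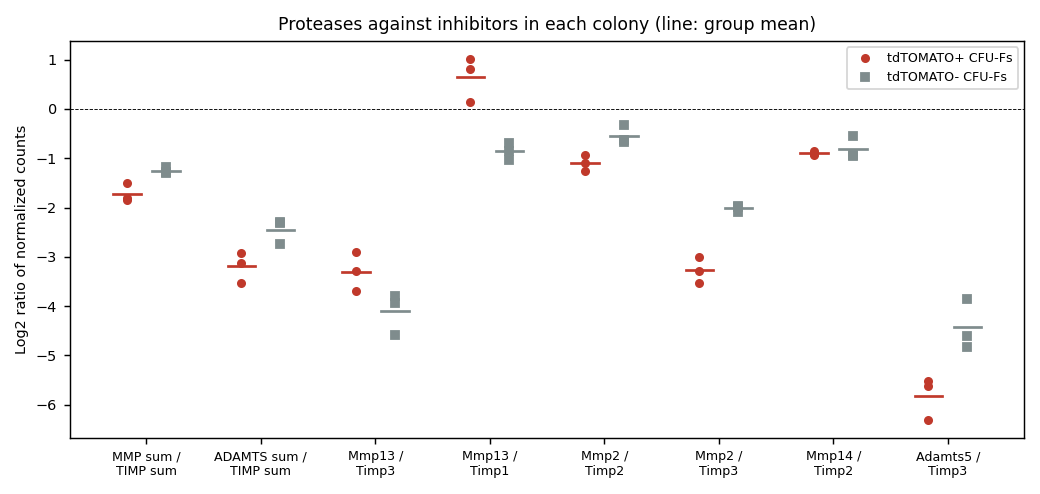
Log2 ratios of proteases to inhibitors in normalized counts, 1 point a colony, tdTOMATO+ left of tdTOMATO- in each pair, with the mean as a line. Mmp13 over Timp3 is higher and Mmp2 over Timp2 lower in all tdTOMATO+ colonies, and the ratio of MMP to TIMP sums is lower (mean -1.72 in tdTOMATO+ and -1.25 in tdTOMATO- colonies).

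Genes that activate, block or clear these enzymes were taken from a list of 26, of which 23 were measured. Limma called 0 higher and 1 lower, edgeR the same numbers, and DESeq2 2 higher and 2 lower. Over all genes limma called 1.20% higher and 0.143% lower, and DESeq2 3.52% and 1.12%. At an unadjusted p under 0.05, 3 of the 23 were higher and 3 lower, where 7.53% and 4.79% of all genes were. The median log2 fold change of the list was 0.03. The gene called was Pcsk6 (PACE4), a proprotein convertase that can remove the propeptide of ADAMTS enzymes, with 673, 623 and 528 normalized counts in tdTOMATO+ colonies, against 1199.9, 2302 and 1805 in tdTOMATO- colonies and a log2 fold change of -1.50 ± 0.24 (SE) (adjusted p = 0.0484). All tdTOMATO+ colonies were lower. Furin, the related convertase that activates Mmp14 and Mmp11, had 4309, 4648 and 4288 in tdTOMATO+ colonies, against 4183, 4340.0 and 4643 in tdTOMATO- colonies, with overlap (adjusted p = 0.979).

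Plau (urokinase), which feeds the plasmin route of MMP activation, had 6455, 7250.1 and 5406 normalized counts in tdTOMATO+ colonies, against 4369, 4413 and 3235 in tdTOMATO- colonies. Serpinb2, the gene of an inhibitor of urokinase, had 735, 1069 and 653 in tdTOMATO+ colonies, against 378, 225 and 174 in tdTOMATO- colonies, with a log2 fold change of 1.70 ± 0.32 (SE). All tdTOMATO+ colonies were higher for both genes. Neither passed by limma (adjusted p = 0.112 for Plau and 0.0743 for Serpinb2), and both passed by DESeq2.

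**Figure D5:**
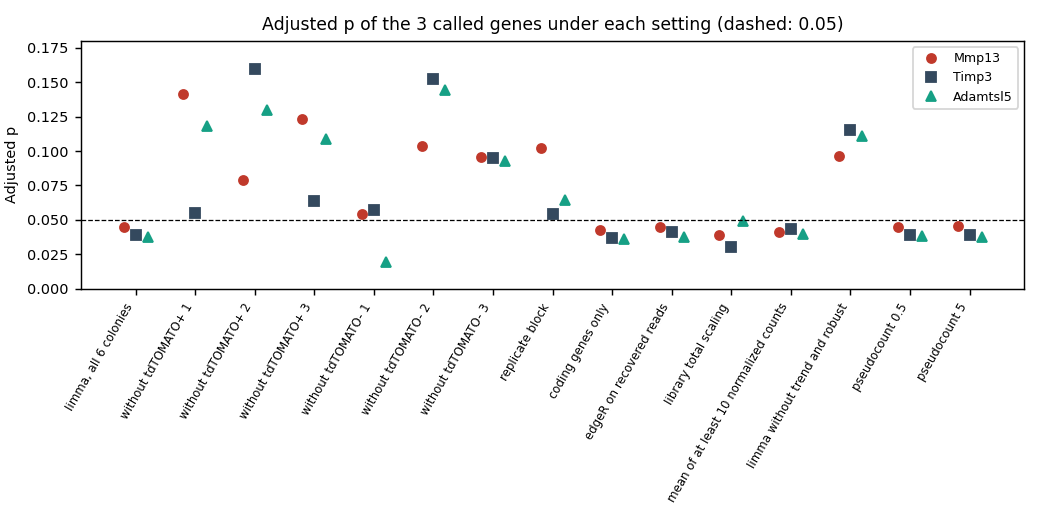
Adjusted p of Mmp13, Timp3 and Adamtsl5 under the limma fit to 6 colonies and under each alternative other than DESeq2, with 0.05 dashed. The 3 genes lie under 0.05 with edgeR, both pseudocounts, the low-value filter, coding genes only and library-total scaling, and above it under the replicate block, without limma's trend and in most fits that leave out a colony.

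Depth did not separate the groups, with 24085516 to 31046589 recovered reads per colony. Of the 36 members, 34 averaged at least 10 normalized counts, and Adamts15 and Mmp25 fell below that and received no adjusted p from DESeq2. Exons of 8 members overlap another annotated gene, of which Timp3 and Mmp19 (22.3% shared with Tmem198b) shared the largest parts.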

How the data were processed

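RNA of 3 tdTOMATO+ and 3 tdTOMATO- CFU-Fs was sequenced, and groups follow the sample labels. The study's methods name TrimGalore and Cutadapt for trimming, STAR for alignment to GRCm38, and HTSeq for counting unique reads. Genes under 10 reads in every library were dropped, and DESeq2 size factors scaled the rest. Tool versions and the strand setting are not given in the sources used here. The signal deposited by the authors is this normalized count. The authors' own comparison columns (fold change, SE, statistic, p-values) and gene lists were not used.

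All values were whole multiples of a step per library (100% within 0.001), which gave the reads, 24085516 to 31046589 per library. For tdTOMATO+ 3 and tdTOMATO- 3 the step lies within 0.5% of 1, so their recovery, on which edgeR and DESeq2 rest, is less sure. A member needed 10 reads in 1 library to be listed, and further Mmp, Adamts or Timp genes were not analysed here. log2(normalized count + 1) was fitted with limma 3.58.1 (trend and robust, R 4.3.3), two-sided, with Benjamini-Hochberg adjustment over 14735 genes. Alternatives on the recovered reads were edgeR 4.0.16 (quasi-likelihood) and DESeq2 1.42.0. Others were pseudocounts of 0.5 and 5, a mean of at least 10, coding genes only (13517), library-total scaling, limma without trend and robust, a replicate block, and leaving out each colony. Fold changes with a pseudocount understate low genes. The scripts were tested on simulated data. Members named with statistics were those called, those with a mean of at least 30 and no overlap, the 10 with the highest means, the TIMPs, and those called by another tool. Mmp12 is given with its adjusted p outside this rule. Other members are given by level. Exon lengths and overlaps are from GENCODE M21 (GRCm38). Members and gene lists were chosen with earlier results of these data known.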

Additional observations from a re-analysis of the deposited data

How the results depend on the processing

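Of all genes, limma called 177 higher and 21 lower, DESeq2 498 and 159, and limma without trend and robust 1 and 0. Of the 36 members limma called 2 higher and 1 lower, DESeq2 6 and 2, and limma without trend and robust 0 and 0. Leaving out 1 colony gave 1 to 178 genes higher and 0 to 44 lower, and 0 to 1 members in each direction. Without trend and robust the adjusted p was 0.0965 for Mmp13, 0.116 for Timp3 and 0.111 for Adamtsl5. With the replicate number as a block, 124 genes were higher and 24 lower, and 0 members in each direction (adjusted p = 0.102 for Mmp13, 0.054 for Timp3 and 0.0648 for Adamtsl5). Deviations of same-numbered colonies correlated by 0.0897, 0.0241 and 0.182. tdTOMATO+ 1 and 3 correlated best with their own number, and tdTOMATO+ 2 did not (0.0678 with tdTOMATO- 1). With 3 colonies in each group this check cannot decide whether same-numbered colonies were paired. The other 7 settings moved no call of these 3 genes. The median log2 fold change of the MMP genes (0.29) was 0.37 by DESeq2, 0.38 by edgeR and 0.12 to 0.46 with 1 colony left out, and that of the ADAMTSL genes was 0.21 to 0.46 with 1 left out. The summed MMP to TIMP difference (-0.46) was -0.19 per base of exon, -0.17 without Mmp2, -0.76 without Mmp13 and 0.0579 without Timp3. The mean-log difference (0.25) was 0.49 without Timp3. With 1 colony left out the mean-log difference ranged from 0.147 (without tdTOMATO+ 1) to 0.427 (without tdTOMATO+ 3). With 1 colony left out, the sign turned for Adamts1 (-0.45 to 0.0126) and Mmp14 (-0.0632 to 0.16). The cause of these shifts was not tested. Few reads limit Mmp9, Mmp25, Mmp27, Adamts15 and Adamts18, which had under 10 reads in at least 1 library.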

Other observations

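The ADAM sheddases, membrane-bound relatives of the ADAMTS enzymes that release cell surface proteins, were a list of 12, of which 10 were measured. Limma called 1 higher and 0 lower, where 1.20% and 0.143% of all genes were, and the median log2 fold change was 0.22. The gene called was Adam8, known from leukocytes and osteoclasts, with 7066, 8179.7 and 5706 normalized counts in tdTOMATO+ colonies, against 3726, 3782 and 3892 in tdTOMATO- colonies. All tdTOMATO+ colonies were higher, by 0.86 ± 0.12 (SE) on the log2 scale (adjusted p = 0.0249). The macrophage and pan-leukocyte sums given in the report differed in the same direction, and their part in the Adam8 difference was not tested.

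Of 17 listed substrates of ADAMTS enzymes 16 were measured. Limma, edgeR and DESeq2 each called 0, and 0 were higher and 2 lower at an unadjusted p under 0.05, with a median of -0.17. Col1a1, the main bone collagen, had 489831, 484865 and 664883 normalized counts in tdTOMATO+ colonies, against 708238, 592416 and 726469 in tdTOMATO- colonies (adjusted p = 0.491). tdTOMATO+ 1 and 2 lay below every tdTOMATO- colony and tdTOMATO+ 3 lay among them.

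Of 16 transcription factors known to regulate collagenase genes, all measured, limma and edgeR called 0 and DESeq2 3 higher and 1 lower. At an unadjusted p under 0.05, 4 were higher and 2 lower. Over all genes DESeq2 called 3.52% higher and 1.12% lower. At an unadjusted p under 0.05, 7.53% of all genes were higher and 4.79% lower. Runx2, the osteoblast and hypertrophic chondrocyte factor, had 5589, 5203 and 5777 normalized counts in tdTOMATO+ colonies, against 4677, 3869.6 and 3741 in tdTOMATO- colonies (log2 fold change 0.44 ± 0.10 (SE), adjusted p = 0.0921 by limma and 0.00664 by DESeq2). All tdTOMATO+ colonies were higher. Ets2 had 1267, 1392 and 1152 in tdTOMATO+ colonies, against 908, 658 and 970 in tdTOMATO- colonies (adjusted p = 0.0154 by DESeq2). Nfkb1 had 1939, 1918 and 1883 in tdTOMATO+ colonies, against 1561, 1621 and 1665 in tdTOMATO- colonies (adjusted p = 0.049 by DESeq2). Both were higher in every tdTOMATO+ colony without passing by limma (adjusted p = 0.148 and 0.131). Of the AP-1 subunits, Jund had 933, 669.8 and 669 in tdTOMATO+ colonies, against 1183, 1167 and 1152 in tdTOMATO- colonies (adjusted p = 0.0726 by limma and 0.00294 by DESeq2). Junb had 1840.4, 1996 and 2186 in tdTOMATO+ colonies, against 2213, 3577 and 2872 in tdTOMATO- colonies, and both were lower in every tdTOMATO+ colony. Fosb had 287, 316 and 249 in tdTOMATO+ colonies, against 177, 228 and 116 in tdTOMATO- colonies, and was higher in every tdTOMATO+ colony without passing (adjusted p = 0.254). Fos, Fosl1, Fosl2 and Jun overlapped.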
